A study of Mus musculus with 9 samples.

Results

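Most proteins of the mitochondrion are made in the cytosol and imported, and the genes of the import machinery were examined here in MC38 cells, a mouse colon carcinoma line. The gene set held every gene whose symbol begins with Timm or Tomm, together with Pam16, Samm50, Mtx1, Mtx2, Chchd4, Gfer, Pmpca, Pmpcb and Grpel1, a rule on names that uses no measured value itself. It came to 34 of the 16509 genes in the table, of which 11 were assigned to the outer membrane, 9 to the intermembrane space, 10 to the inner membrane with its motor and 2 to the matrix. Of the other two, Tomm34 is a cytosolic cochaperone, and Timmdc1 matched by symbol only, since it is an assembly factor of respiratory complex I and no import component. The motor gene Grpel1 was counted with the inner membrane, where the motor works, although its protein is soluble in the matrix. Timm8a2 had 0 or 1 count in every library and was not tested, which left 33 genes.

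A precursor protein enters through the TOM complex of the outer membrane, where Tomm20, Tomm22 and Tomm70a act as receptors and Tomm40 forms the channel. Small Tim chaperones carry hydrophobic precursors across the intermembrane space, and the Chchd4 and Gfer disulfide relay oxidises and thereby traps small cysteine-rich proteins there. The TIM23 and TIM22 complexes take precursors across or into the inner membrane. The PAM motor pulls them into the matrix, where the peptidase formed by Pmpca and Pmpcb removes their targeting sequence.

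Messenger RNA was sequenced from 9 libraries in 3 groups of 3. Ctrl cells received DMSO according to the sample labels and PBS according to the study's methods. Cu-Cys cells received copper together with cystine. Cadict cells received a nanodrug in which copper and cystine are combined with glucose oxidase (GOx), which consumes glucose, and with the GE11 peptide, which targets the EGF receptor. All groups are this 1 cell line, no dose or time is given for these libraries, and the study describes its cell experiments as repeated independently, with 3 replicates here, although the labels do not say which cultures the libraries came from. The p-values measure the spread between these samples. Total expected counts lay between 17905771 and 18293056 per library, and the import genes took 0.189% to 0.191% of the counts in Ctrl, 0.224% to 0.230% in Cu-Cys and 0.217% to 0.245% in Cadict libraries. Cadict replicate 2 stood apart, with a chi-square per gene of 14.7 and 23.2 against the other Cadict libraries, which differed from each other by 3.64. Of the epithelial markers, Krt18, Epcam and Vil1 had at most 5 counts in any library, so the colon epithelial label was not borne out by them, and Krt8 had 1 to 17. Cdh1 had 65 to 152 counts, and Krt19 had 14 to 33 in Ctrl and Cu-Cys and 119 to 131 in Cadict libraries (log2 3.35 in Cadict against Ctrl, edgeR adjusted p = 4.5e-11). The 6 epithelial markers measured summed to 123 to 158 counts in Ctrl, 87 to 95 in Cu-Cys and 286 to 307 in Cadict libraries. The 5 markers of other cell types counted here summed to 441 to 527, 172 to 214 and 97 to 120 counts, mostly from the fibroblast gene Col1a1, and the blood cell marker Ptprc had at most 4 counts in any library. The part of these shifts in the results was not tested.

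Levels are given as CPM, the counts scaled to a common library total, with TMM factors chosen so that most genes keep their level between libraries. A gene was called when its fold change was at least 2 and the Benjamini-Hochberg adjusted p of edgeR's quasi-likelihood test was at most 0.001. In bulk RNA, fewer cells of a kind and less RNA per cell cannot be told apart.

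The first question was how the import machinery responded to the complete nanodrug. In Cadict against Ctrl, 16 import genes were called higher, where 20.7% of all 11949 tested genes were, and 2 were called lower, where 27.1% of all tested genes were. At an adjusted p of at most 0.05 and any fold change, 25 import genes were higher against 40.6% of all genes, and 3 were lower against 47.1%. The median log2 fold change was 0.93 over the import genes and -0.125 over all tested genes. The 3 Cadict libraries lay above all Ctrl libraries for 25 import genes, where 40.3% of all genes did so, and below them for 2, where 47.3% did. These directions depend on the scaling. The TMM factors were 1.26 to 1.27 in Ctrl and 0.64 to 0.67 in Cadict libraries, and scaling by library totals moved the median of all genes by -0.952 (log2) and that of the import genes to -0.0248 and of all genes to -1.08, with 11 genes called in place of 18. The import genes stood higher relative to all genes. A change of scaling moves all genes by about the same amount, so it could not alter that distance and is no test of it. The absolute direction of many import genes did not hold. Grpel1, Timm10, Timm17a, Timm23, Timm8a1, Timm9, Tomm20 and Tomm34 rose and Gfer and Timm44 fell with an adjusted p not above 0.05 under every alternative tried, 10 genes in all. The size of these changes also depended on the scaling. With library totals the 8 rises lay between 0.56 for Tomm34 and 1.72 for Tomm20 (log2). On the log2 of the deposited TPM plus 1 those genes were at 0.21 and 1.35. Gfer and Timm44 fell further, to -2.08 and -2.11 with library totals.

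**Figure D1:**
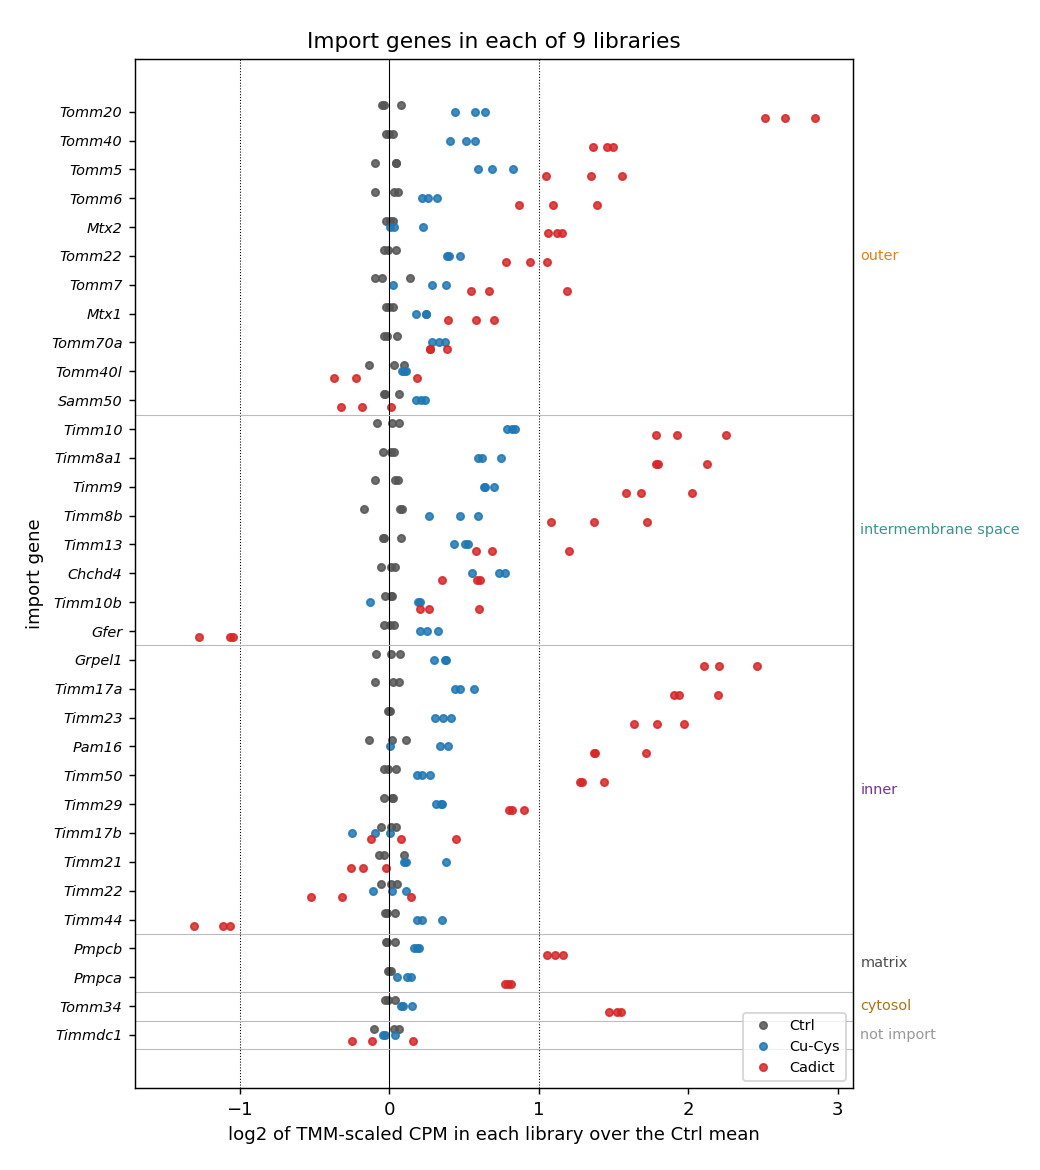
The horizontal axis is the log2 of the TMM-scaled CPM in each library over the Ctrl mean of the gene, and each point is 1 library of Ctrl, Cu-Cys or Cadict. Dotted lines mark a log2 ratio of 1 in either direction. Tomm20 lies farthest to the right in Cadict libraries, and Timm44 and Gfer are the genes whose Cadict libraries fall left of the lower dotted line.

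In the outer membrane, 5 of 11 genes were called higher in Cadict cells and 0 lower (4 higher without Cadict replicate 2), and the median log2 fold change was 0.93. Tomm20, the receptor that binds the targeting sequences of matrix proteins, had the largest change of the set. It was measured at 102, 103 and 111 CPM in Ctrl, 142, 164 and 156 CPM in Cu-Cys, and 659, 758 and 600 CPM in Cadict libraries. The 3 groups did not overlap, and the lowest Cadict library lay far above the highest of the other groups. Tomm20 rose 6.39-fold in Cadict against Ctrl (log2 2.68, SE 0.0808, edgeR adjusted p = 6.4e-14). Its log2 rise was 1.72 with library totals and 1.35 on the log2 of TPM plus 1. The other receptors changed less. Tomm22, the central receptor that holds the complex together, rose by 0.93 on the log2 scale (SE 0.0632), from 88.3 ± 2.54 to 168 ± 15.9 CPM (SD, n = 3), and was -0.02 with library totals. Tomm70a, the receptor for carrier proteins, had a log2 fold change of 0.31 (SE 0.0506) and turned to -0.64 with library totals.

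The channel gene Tomm40 was at 66.0, 64.9 and 64.0 CPM in Ctrl, 92.9, 86.0 and 96.5 CPM in Cu-Cys, and 178, 183 and 167 CPM in Cadict libraries. It rose 2.71-fold (log2 1.44, SE 0.0561, adjusted p = 1.2e-12), with no overlap between the groups in CPM. On the log2 of the deposited TPM plus 1 the rise of Tomm40 was 0.12 (limma adjusted p = 0.11). Its TPM was 111 ± 3.37 in Ctrl, 142 ± 9.53 in Cu-Cys and 121 ± 7.02 in Cadict (SD, n = 3 each). Tomm5, a small subunit of the complex, was at 35.2, 38.8 and 38.8 CPM in Ctrl, 56.8, 66.6 and 60.4 CPM in Cu-Cys, and 95.7, 110 and 77.8 CPM in Cadict libraries. Its rise in Cadict was 2.52-fold (log2 1.33, SE 0.102, adjusted p = 4.4e-09), again without overlap in CPM. Tomm6, of whose 50-base stretches 75.9% are shared with the overlapping gene Gm21981, rose by 1.13, and Tomm7, below the 2-fold limit, by 0.83 on the log2 scale. On the log2 of the deposited TPM plus 1, Tomm5, Tomm6 and Tomm7 all had negative values, of -0.06, -0.21 and -0.51. Tomm40l, a paralog of the channel gene, showed no call, with a log2 fold change of -0.12 (adjusted p = 0.31), and was at -1.07 with library totals. In the SAM complex, which inserts barrel-shaped proteins into the outer membrane, Mtx2 rose by 1.11 (-0.20 on the log2 of TPM plus 1) and Mtx1 by 0.56 (-0.39 with library totals), while Samm50, the core subunit, was at -0.16 (adjusted p = 0.042) with overlapping libraries, and at -1.12 (adjusted p = 1e-10) with library totals.

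In the intermembrane space, 4 of 8 tested genes were called higher and 1 lower, with a median of 1.13. All 6 small Tim chaperones tested had a positive log2 fold change, from 0.37 for Timm10b to 2.0 for Timm10, and each passed an adjusted p of 0.05, but Timm13 and Timm10b turned to -0.11 and -0.59 with library totals. Timm10 was at 6.96, 6.49 and 7.19 CPM in Ctrl, 12.2, 12.3 and 11.9 CPM in Cu-Cys, and 26.1, 32.9 and 23.7 CPM in Cadict libraries. It forms a ring with Timm9, which was at 12.6, 12.4 and 11.3 CPM in Ctrl, 19.7, 18.7 and 18.8 CPM in Cu-Cys, and 38.8, 49.2 and 36.2 CPM in Cadict libraries. The groups were separate for both genes in CPM, and Cadict replicate 2 was the highest library for each. In TPM the Cu-Cys and Cadict libraries overlapped. Timm10 was at 69.5 ± 2.47 in Cu-Cys and 68.4 ± 5.26 in Cadict, and Timm9 at 66.4 ± 2.46 and 65.9 ± 4.73 (SD, n = 3 each). Timm10 rose 3.99-fold (SE 0.112 on the log2 scale, adjusted p = 9e-11) and Timm9 rose 3.42-fold (SE 0.101, adjusted p = 1.1e-10). With library totals they were at 1.04 and 0.82 on the log2 scale. Timm8a1, which works with Timm13 on a smaller group of precursors, was at 59.6, 62.6 and 61.9 CPM in Ctrl, 92.6, 103 and 94.3 CPM in Cu-Cys, and 213, 268 and 212 CPM in Cadict libraries. It rose 3.76-fold (SE 0.0809, adjusted p = 3.1e-12), and 41.0% of its 50-base stretches also occur in the annotated gene Gm9797, so its count is uncertain.

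The 2 genes of the disulfide relay changed in opposite directions in Cadict cells. Gfer, the oxidase that reoxidises Chchd4, was at 14.7, 14.4 and 14.0 CPM in Ctrl, 17.2, 16.6 and 18.1 CPM in Cu-Cys, and 6.88, 6.97 and 5.96 CPM in Cadict libraries. In CPM, Cadict libraries lay below all others and Cu-Cys libraries above all others. Gfer fell 2.18-fold in Cadict against Ctrl (log2 -1.12, SE 0.0953, adjusted p = 1.6e-08), and every alternative gave a negative value. Chchd4, the receptor and oxidoreductase of the relay, was at 16.4 ± 0.556 CPM in Ctrl and 23.5 ± 2.23 CPM in Cadict (SD, n = 3 each). Its log2 fold change of 0.52 (SE 0.0876, adjusted p = 4.6e-05) became -0.44 with library totals.

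In the inner membrane with its motor, 5 of 10 genes were called higher and 1 lower, with a median of 1.09. Grpel1, the nucleotide exchange factor of the motor's Hsp70, was at 38.9, 36.4 and 40.8 CPM in Ctrl, 47.6, 50.1 and 50.3 CPM in Cu-Cys, and 179, 213 and 166 CPM in Cadict libraries. It rose 4.80-fold (log2 2.27, SE 0.0809, adjusted p = 4.4e-13) with no overlap between any groups. With library totals and on the log2 of TPM plus 1, Grpel1 was at 1.31 and 0.93. Timm44, which tethers that Hsp70 to the TIM23 channel, went the other way. It was at 79.3, 82.3 and 78.6 CPM in Ctrl, 102, 93.2 and 91.2 CPM in Cu-Cys, and 37.0, 38.3 and 32.3 CPM in Cadict libraries. Timm44 fell 2.23-fold (log2 -1.16, SE 0.0692, adjusted p = 2e-10), and the lowest Ctrl library stood above every Cadict library. Pam16, a J-like regulator of the motor, rose by 1.49 on the log2 scale (SE 0.121), and 88.7% of its 50-base stretches are shared with the annotated gene Gm9803. On the log2 of TPM plus 1 the rise of Pam16 was 0.11 (limma adjusted p = 0.23).

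The channel genes of the TIM23 complex rose with Grpel1. Timm17a was at 39.8, 44.5 and 43.2 CPM in Ctrl, 57.6, 62.9 and 59.0 CPM in Cu-Cys, and 163, 195 and 159 CPM in Cadict libraries. It rose 4.06-fold (log2 2.02, SE 0.0771, adjusted p = 9.4e-13). Timm23 was at 72.6, 72.3 and 72.0 CPM in Ctrl, 89.3, 96.2 and 92.9 CPM in Cu-Cys, and 249, 284 and 225 CPM in Cadict libraries. Its rise was 3.49-fold (log2 1.80, SE 0.0709, adjusted p = 1.3e-12), and 83.9% of its 50-base stretches occur in 7 other annotated genes, Gm10273 among them. Timm17a and Timm23 were at 1.07 and 0.85 with library totals, and at 0.68 and 0.48 on the log2 of TPM plus 1. Neither gene overlapped between groups. Timm50, the receptor of the complex, rose by 1.33 on the log2 scale, but by 0.01 on the log2 of TPM plus 1 (limma adjusted p = 0.84). Timm17b and Timm21 did not pass the test, at 0.15 (adjusted p = 0.24) and -0.15 (adjusted p = 0.18). In the TIM22 complex, which inserts carrier proteins, the channel gene Timm22 was at -0.21 (adjusted p = 0.13) and its partner Timm29 at 0.84 (adjusted p = 6.9e-10, and -0.11 with library totals). With library totals Timm17b, Timm21 and Timm22 were at -0.80, -1.10 and -1.16.

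In the matrix, Pmpcb, the catalytic subunit of the peptidase, was at 54.3, 52.0 and 52.1 CPM in Ctrl, 60.0, 59.4 and 60.7 CPM in Cu-Cys, and 114, 118 and 110 CPM in Cadict libraries. It rose 2.16-fold (log2 1.11, SE 0.0511, adjusted p = 8.7e-12), just past the 2-fold limit, while Pmpca rose by 0.79. With the log2 of TPM plus 1 the values were -0.20 and -0.51. Tomm34, which binds precursors in the cytosol, rose 2.85-fold, from 56.0 ± 1.27 to 160 ± 4.27 CPM (SD, n = 3 each). Its log2 rise was 0.56 with library totals and 0.21 on the log2 of TPM plus 1. Timmdc1 was at -0.06 (adjusted p = 0.57).

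**Figure D2:**
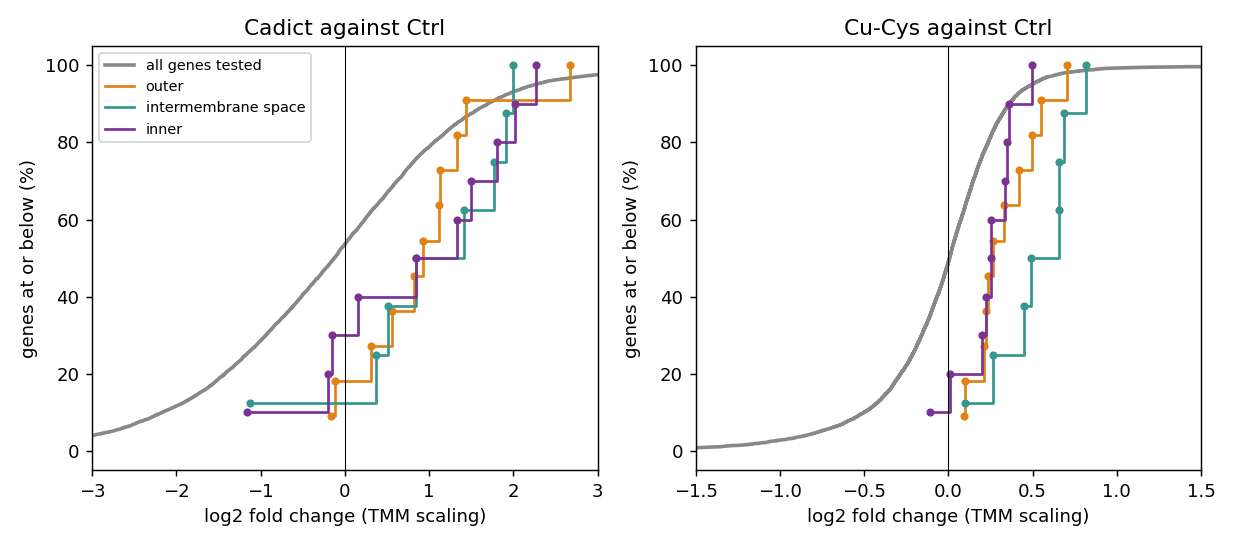
Each curve gives the percentage of genes at or below a log2 fold change, for all 11949 tested genes and for the outer membrane, intermembrane space and inner membrane import genes. In Cadict against Ctrl the 3 import curves lie right of the curve of all genes over most of their course and close to each other, and in Cu-Cys against Ctrl the intermembrane space curve lies farthest right.

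Under TMM scaling, outer and inner membrane genes thus gave 5 of 11 and 5 of 10 calls higher, beside 20.7% of all genes, with medians of 0.93 and 1.09. With library totals these medians were -0.0248 and 0.134, and the calls under other scalings are given in the last section. No test of the difference between outer and inner membrane genes was made. On the length-scaled TPM values, which can be summed over genes, outer membrane genes made up 46.5% ± 0.153 of the import transcripts in Ctrl, 47.0% ± 0.153 in Cu-Cys and 41.2% ± 0.473 in Cadict (SD, n = 3 each). Inner membrane genes, with Grpel1 counted among them, made up 27.8% ± 0.289, 26.3% ± 0.0577 and 31.4% ± 0.153. The TPM of Grpel1 was 27.5 in Ctrl and 53.1 in Cadict, within inner membrane sums of 745.8 and 808.4, and no share without Grpel1 was computed. The ratio of outer to inner membrane TPM was 1.67 ± 0.0153 in Ctrl, 1.78 ± 0.00577 in Cu-Cys and 1.31 ± 0.0153 in Cadict, so the groups did not overlap and Cadict lay lowest. Without Tomm20, whose part of the outer membrane TPM was 3.87% ± 0.169 in Ctrl and 11.7% ± 0.173 in Cadict, the ratio was 1.61 in Ctrl and 1.16 in Cadict. On expected counts, which weight long transcripts more, the outer membrane share was 51.1% ± 0.153 in Ctrl and 51.0% ± 0.208 in Cadict. Tomm20, the longest gene of the set, sets that share: without it, a choice made after seeing the data, the outer membrane share of the counts was 47.2% ± 0.0577 in Ctrl, 47.5% ± 0.252 in Cu-Cys and 38.6% ± 0.656 in Cadict, and that of the TPM was 45.5% ± 0.153, 45.9% ± 0.173 and 38.2% ± 0.473. The summed TPM of import genes was 2678 ± 20.6 in Ctrl, 3186 ± 73.8 in Cu-Cys and 2573 ± 42.8 in Cadict.

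**Figure D3:**
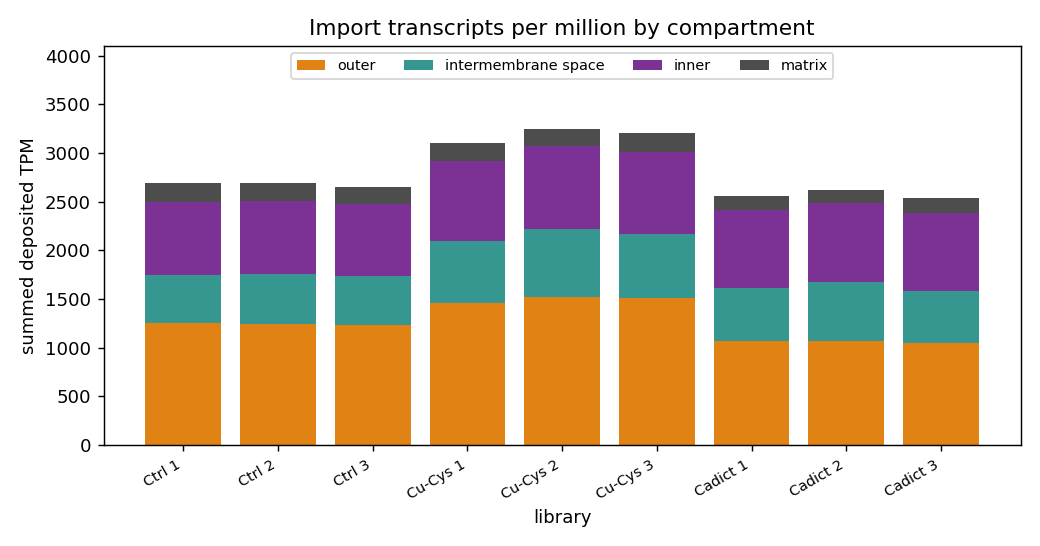
Bars give the summed deposited TPM of the import genes in each of the 9 libraries, divided by compartment. The Cu-Cys bars are the tallest, at 3106 to 3251, and the outer membrane segment is smallest in the Cadict bars.

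Paralogs and partner genes were then compared within each library, where the scaling cancels. A shift tied to transcript length, described below, does not cancel. The first gene is the shorter in Timm17a/Timm17b (588 and 1374 bases of effective length), Tomm40/Tomm40l (1248 and 2578) and Timm10/Timm10b (337 and 497). So it is in Chchd4/Gfer (916 and 1458) and Mtx1/Mtx2 (766 and 929). It is the longer in Timm8a1/Timm8b, Timm9/Timm10 and Pmpca/Pmpcb. The part of length in these ratios was not tested. The log2 count ratio of Timm17a to Timm17b, alternative subunits of the TIM23 channel, was 1.67, 1.80 and 1.86 in Ctrl, 2.47, 2.44 and 2.25 in Cu-Cys, and 3.84, 3.53 and 3.60 in Cadict libraries. The ratio was thus 3.68-fold higher in Cadict than in Ctrl and 1.53-fold higher in Cu-Cys, with no overlap between groups. On the TPM scale, Timm17a exceeded Timm17b 8.05-fold ± 0.572 in Ctrl and 29.4-fold ± 3.41 in Cadict. The ratio of Tomm40 to Tomm40l rose from 1.39 ± 0.109 to 2.96 ± 0.258, and 64.3% of the Tomm40l exons overlap Nr1i3 on the opposite strand, so reads of the 2 genes cannot be told apart if the counting ignored strand. Timm10 against Timm10b, a relative that associates with the TIM22 complex, moved from -0.14 ± 0.0787 to 1.49 ± 0.0453. Of the 50-base stretches of Timm10b, 10.2% are shared with other annotated genes. Timm8a1 against Timm8b changed least among the paralogs, from 2.38 ± 0.106 in Ctrl to 2.89 ± 0.168 in Cadict.

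The partners that form 1 complex moved closer together or apart by differing amounts. Timm9 to Timm10, whose proteins alternate in 1 ring, changed by -0.22 (log2) from Ctrl to Cadict. Pmpca to Pmpcb changed by -0.31 and Mtx1 to Mtx2 by -0.56. Timm8a1 to Timm13 changed by 1.08, from 1.72 ± 0.0498 to 2.80 ± 0.143. The largest change among partners was that of Chchd4 to Gfer, at 0.20, 0.20 and 0.17 in Ctrl, 0.48, 0.72 and 0.64 in Cu-Cys, and 1.60, 1.81 and 2.06 in Cadict libraries. The relay ratio was 3.11-fold higher in Cadict and 1.34-fold higher in Cu-Cys than in Ctrl, without overlap. No test was made of these ratios.

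**Figure D4:**
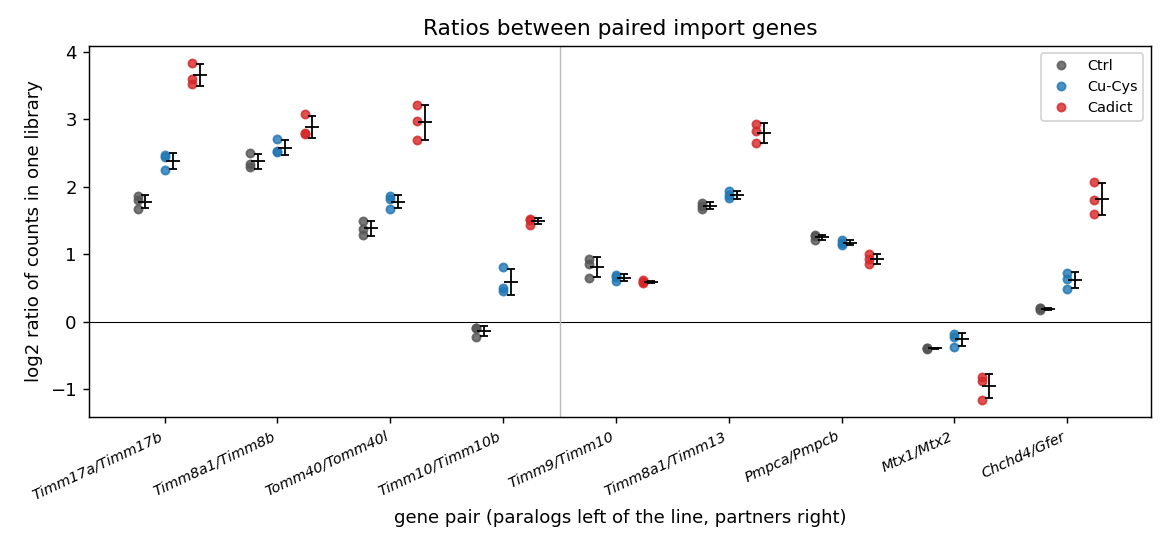
Points are log2 ratios of the counts of 2 genes in 1 library, for 4 pairs of paralogs and 5 pairs of partners, and black marks give the mean and SD of each group of 3 libraries. Timm17a/Timm17b and Chchd4/Gfer climb from Ctrl through Cu-Cys to Cadict, while Timm9/Timm10 stays within 0.57 to 0.93.

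Import genes are short. Their median effective length was 929 bases against 2618 bases over all tested genes, and in these data shorter genes had higher fold changes in Cadict cells. Genes of under 700 bases had a median log2 fold change of 0.93 over all 801 such genes and of 1.41 over the 9 import genes among them. Between 700 and 1500 bases the medians were 0.296 over 2040 genes and 0.846 over 13 import genes. Above 1500 bases they were -0.321 over 9108 genes and 0.313 over 11 import genes. The median of the import genes thus lay above that of all genes in each of the 3 classes. Single members, among them Gfer, Timm44 and Timm10b, lay below the median of their class. Across genes, Spearman's rho of length and log2 fold change was -0.21 over 11949 genes and -0.37 over 33 import genes, which share their libraries and are not independent replicates. The average effective length that the FPKM sums imply fell from 1683 ± 24.3 bases in Ctrl to 1327 ± 103 bases in Cadict libraries, and was lowest, at 1214 bases, in Cadict replicate 2. The part of transcript length in the import results was not tested. Tomm20 and Grpel1, at 4657 and 3008 bases, are among the longest of the set.

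**Figure D5:**
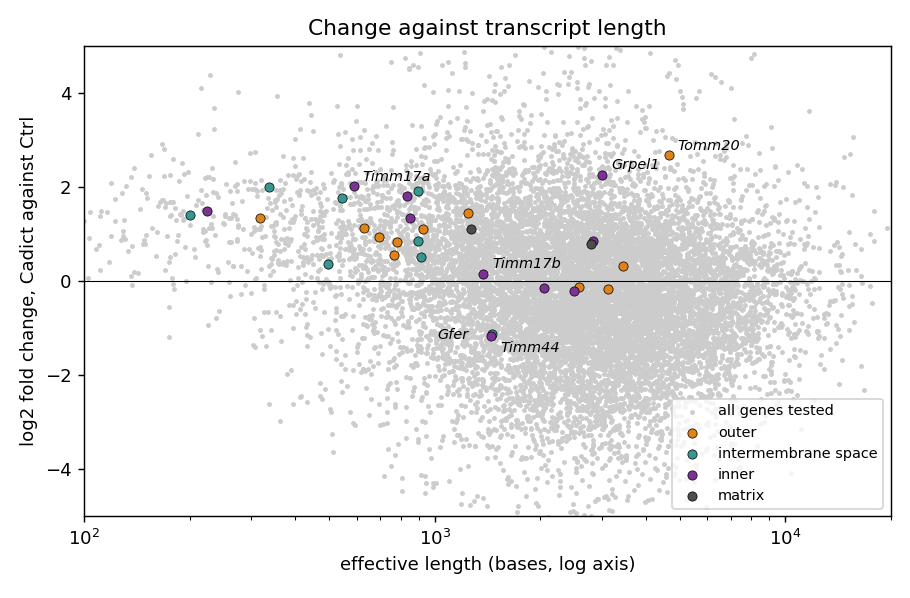
Each grey point is 1 of the tested genes, with its effective length in bases on a log axis and its log2 fold change in Cadict against Ctrl, and coloured points are import genes of the outer membrane, intermembrane space, inner membrane and matrix. Most short import genes lie above 0, whereas Tomm20 and Grpel1 lie high among the long genes, and 191 genes fall outside the axes.

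The second question was what copper and cystine did without GOx and GE11. In Cu-Cys against Ctrl, 0 import genes were called by edgeR or by any other tool run at this threshold, where 0.167% of all genes were called higher and 1.47% lower. With adjusted p of 0.05 as the only limit, 22 import genes were higher, where 22.6% of all genes were, and 0 were lower, where 22.4% were. At an unadjusted p under 0.05 the counts were 25 and 0. Cu-Cys libraries lay above all Ctrl libraries for 25 import genes, against 31.4% of all genes, and below them for 0, against 29.9%. The changes were small, with a median log2 fold change of 0.263 against 0.00668 over all genes, and the scaling moved the median of all genes by at most -0.139. The largest were those of Timm10, at 0.82 (SE 0.115, adjusted p = 5.7e-05), Tomm5, at 0.70 (SE 0.1, adjusted p = 6.1e-05), and Chchd4, at 0.69 (SE 0.08, adjusted p = 1e-05). By compartment, 8 of 11 outer membrane, 7 of 8 intermembrane space and 6 of 10 inner membrane genes were higher at the adjusted p of 0.05. In this comparison 12 import genes, among them Tomm20, Tomm40, Timm10 and Chchd4, passed an adjusted p of 0.05 under every alternative. Shorter genes also had higher fold changes in Cu-Cys cells (Spearman's rho -0.2 over all genes, -0.37 over import genes). Medians over all genes were 0.167 under 700 bases, 0.0785 from 700 to 1500 bases and -0.0174 above. Those of the import genes were 0.451, 0.254 and 0.201 in the same order. The 78 mitoribosomal protein genes had a median of 0.256, with 46 higher and 0 lower at the adjusted p of 0.05. The part of length in the Cu-Cys shift was not tested.

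Timm44 and Gfer, which fell in Cadict cells, were slightly higher in Cu-Cys cells, at 0.25 (adjusted p = 0.0037) and 0.26 (adjusted p = 0.0086). The comparisons share the Ctrl libraries, so the direct one was made. In Cadict against Cu-Cys, 11 import genes were called higher, where 18.6% of all genes were, and 2 lower, where 23.6% were, and the median was 0.626 against -0.0989. With library totals these medians were -0.261 and -0.98, and 14 of 33 import genes were positive in place of 24. Tomm20 was 4.36-fold higher (log2 2.13, SE 0.0788, adjusted p = 8.8e-13), followed by Grpel1 at 1.91, Timm17a at 1.53, Timm23 at 1.44 and Tomm34 at 1.40. With library totals these genes were at 1.24, 1.03, 0.64, 0.56 and 0.52, in that order. Timm44 was 2.66-fold lower (log2 -1.41, SE 0.0689, adjusted p = 2.2e-11) and Gfer 2.61-fold lower (log2 -1.39, SE 0.0936, adjusted p = 1.1e-09). Of the outer membrane genes, Tomm20 and Mtx2 were called in this direct comparison. Tomm70a, at -0.02 (adjusted p = 0.74), and Chchd4, at -0.17 (adjusted p = 0.068), did not pass the test under TMM scaling, but were at -0.90 and -1.06 with library totals, and their TPM was 117 ± 2.14 in Cu-Cys against 52.1 ± 7.0 in Cadict for Tomm70a and 55.7 ± 4.45 against 22.0 ± 2.82 for Chchd4 (SD, n = 3 each).

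Genes that work beside the members were counted from lists made for this purpose, and their calls in Cadict against Ctrl stand beside 20.7% higher and 27.1% lower over all genes. Hspa9, the Hsp70 of the motor that Grpel1 serves and Timm44 tethers, rose by 2.67 on the log2 scale in Cadict against Ctrl (adjusted p = 2.6e-16), and of the 4 other motor and TIM genes on its list Dnajc15 was called higher and 0 were called lower. Among 10 processing and insertion genes, 4 were called higher and 2 lower, with the matrix protease Lonp1 at 2.47, and the insertase Oxa1l at -1.45. Of 10 twin-cysteine proteins of the intermembrane space, many of which are imported by the Chchd4 relay, 3 were called higher and 2 lower, with Chchd2 at 3.01, Cox17, the copper chaperone of cytochrome c oxidase, at 2.08, and Triap1 at -1.87. Of 7 other outer membrane genes, 3 were called higher and 0 lower, with the channel gene Vdac2 at 2.0. In the cristae-organising MICOS complex 4 of 7 genes were called higher and 0 lower. Among 78 mitoribosomal protein genes 26 were called higher and 6 lower, with a median of 0.539 that became -0.416 with library totals, where 26 in place of 59 were positive. The medians of the motor, processing, twin-cysteine and other outer membrane lists also turned negative with library totals, at -0.0649, -0.556, -0.193 and -0.266, while that of MICOS was 0.0563.

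The sequences upstream of the import genes were searched for 5 motifs on both strands, because many of these genes rose in Cadict cells under TMM scaling. With library totals 16 of 33 were positive. The windows hold 300 bases around each start site and come from RefSeq on GRCm38.p6; 31 of the 34 genes had at least 1 window and there were 33 windows in all. The ETS letters CCGGAAG occurred in 48.5% of the import windows, in 8.86% of all 32851 windows and in 17.9% of the 12235 windows of tested genes. They were found in 7 of 16 genes called higher in Cadict cells and in 8 of 15 others. The E-box CACGTG occurred in 12.1% of import windows and in 9.87% of those of tested genes. It was found in 4 of 16 genes called higher, Tomm20, Timm10, Timm9 and Timm8a1, and in 0 of 15 others. The share called among all tested genes that hold it was not computed, and a link of motif and call was not tested. The NRF1 core GCGCANGCG occurred in 15.2% of import windows and in 13.3% of those of tested genes. TGATGNAA, the letters searched for ATF4, occurred in 0 import windows and in 2.13% of those of tested genes, and the heat shock element GAANNTTC in 3.03% and 5.62%. A match is a run of letters and no evidence of binding. The windows of Tomm20 (chr8:126945872-126946171, minus strand) and Timm10 (chr2:84826771-84827070, plus strand) are printed because they hold several of these motifs, and those of Timm17a (chr1:135313688-135313987, minus strand) and Timm17b (chrX:7899086-7899385, plus strand) because these paralogs had different fold changes. Capitals mark the motif letters, on either strand, and the windows of Timm17a and Timm17b hold none of the 5. A search by sequence found 0 GENCODE M21 transcript starts of Tomm20 inside its RefSeq window, and 1 start of its own gene in each other printed window. The Tomm20 matches may therefore lie away from the start in use.
Tomm20: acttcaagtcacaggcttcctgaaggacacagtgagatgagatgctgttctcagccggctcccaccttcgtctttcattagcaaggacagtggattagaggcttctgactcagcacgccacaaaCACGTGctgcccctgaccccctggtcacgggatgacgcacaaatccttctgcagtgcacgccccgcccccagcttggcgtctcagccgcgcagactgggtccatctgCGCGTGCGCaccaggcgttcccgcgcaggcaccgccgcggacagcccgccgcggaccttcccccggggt
Timm10: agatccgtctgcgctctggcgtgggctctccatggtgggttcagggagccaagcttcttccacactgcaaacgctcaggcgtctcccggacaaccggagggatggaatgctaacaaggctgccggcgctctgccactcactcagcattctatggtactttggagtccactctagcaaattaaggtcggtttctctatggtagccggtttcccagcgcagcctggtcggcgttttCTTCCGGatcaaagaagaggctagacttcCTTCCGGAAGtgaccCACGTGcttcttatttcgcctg
Timm17a: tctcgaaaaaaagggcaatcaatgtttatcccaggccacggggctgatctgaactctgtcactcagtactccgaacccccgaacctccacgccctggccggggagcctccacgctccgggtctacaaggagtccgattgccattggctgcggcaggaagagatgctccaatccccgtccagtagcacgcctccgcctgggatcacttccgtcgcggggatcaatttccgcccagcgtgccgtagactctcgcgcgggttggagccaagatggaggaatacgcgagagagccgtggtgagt
Timm17b: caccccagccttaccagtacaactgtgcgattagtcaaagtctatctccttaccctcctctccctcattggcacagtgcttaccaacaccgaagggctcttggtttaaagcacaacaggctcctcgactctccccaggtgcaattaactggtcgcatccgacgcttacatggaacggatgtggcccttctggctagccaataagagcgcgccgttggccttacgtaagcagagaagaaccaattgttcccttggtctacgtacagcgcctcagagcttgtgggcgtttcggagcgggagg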

How the data were processed

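Total RNA of MC38 cells was enriched for messenger RNA and sequenced. The submitters' processing notes name HISAT2 2.1.0, Bowtie2 2.3.4.3 and RSEM 1.3.1, without roles, and a mouse and a human build; strand use is not given in the sources used here. The authors deposited for each gene and library an expected count, an FPKM and a TPM. Library kit and instrument differ between the labels (a column kit, DNA nanoballs) and the study's methods (TRIzol, Illumina). Columns CC were assigned to Cu-Cys by initials and CCGE to Cadict by inference from its components. Size-factor and group-average columns were left out. After rounding, the expected counts went into edgeR 4.0.16 (R 4.3.3): filterByExpr, TMM, 1 quasi-likelihood fit of the 3 groups, and Benjamini-Hochberg adjustment over 11949 genes. DESeq2 1.42.0 and limma 3.58.1, the latter on the log2 of FPKM and TPM with pseudocounts of 1 and 0.1, were alternatives. The fit was tested on simulated data in which few genes changed, equally many up and down, so that test cannot bear on the choice of scaling. Shared 50-base stretches were counted in GENCODE M21 on GRCm38, a different build, so no gene coordinates are given. Values in every library are given for up to 3 genes called higher and 3 called lower per compartment, by size of change. Members and lists were chosen with earlier results of these data known. With 3 counts as the limit of a count of 0, detection reached 0.164 to 0.168 CPM by library totals, without the TMM factors. On the TMM scale of the other CPM values this limit is lower in Ctrl and higher in Cadict libraries. It covers counting error only. One marker gene is not reported here.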

Additional observations from a re-analysis of the deposited data

How the results depend on the processing

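When each library was left out in turn, the import genes called in Cadict against Ctrl numbered 17 to 18, those in Cadict against Cu-Cys 12 to 13, and those in Cu-Cys against Ctrl 0. Cadict replicate 2 gave the lower value in the first of these and, with Cu-Cys replicate 1, in the second. The count of 0 says little, since no Cu-Cys change exceeded 0.82 (log2) in the main fit. Of the 297 leave-one-out values in Cu-Cys against Ctrl, 16 lost and 6 gained an adjusted p of at most 0.05. DESeq2, the other filters and the fit of only 2 groups gave 18 to 19, 12 to 16 and 0. Replicate numbers do not pair the libraries (correlations of -0.192 to 0.161 over 8551 genes), and the replicate block gave 18, 13 and 0. With no limit on the fold change (adjusted p of at most 0.05) the counts were 28, 26 and 22, and in Cadict against Ctrl 9 outer membrane genes were higher and 1 lower, and 7 in the intermembrane space were higher. The scaling mattered most. In Cadict against Ctrl, library totals called 11 genes, with 1 outer membrane gene higher and 2 lower, 1 higher in the intermembrane space, and 2 higher and 3 lower in the inner membrane. FPKM plus 1 called 7 genes there and 7 in Cadict against Cu-Cys, with 1 outer gene higher and 1 lower, 0 higher in the intermembrane space, and 2 higher and 2 lower in the inner membrane. TPM plus 1 and plus 0.1 each called 9 genes, with 1 outer gene higher and 2 lower, 0 higher in the intermembrane space, and 0 higher and 4 lower in the inner membrane. The cause was not tested, but these scalings moved the median of all genes by -0.952, -0.653, -1.0 and -1.26.

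Log2 fold changes that turned negative in Cadict against Ctrl were, with library totals, Chchd4 -0.44, Mtx1 -0.39, Pmpca -0.16, Timm10b -0.59, Timm13 -0.11, Timm17b -0.80, Timm29 -0.11, Tomm22 -0.0248, Tomm7 -0.13 and Tomm70a -0.64. With FPKM plus 1 they were Chchd4 -0.44, Mtx1 -0.43, Pmpca -0.17, Timm10b -0.45, Timm13 -0.14, Timm17b -0.74, Timm29 -0.11, Tomm22 -0.0527, Tomm7 -0.17 and Tomm70a -0.63. With TPM plus 1 they were Chchd4 -0.78, Mtx1 -0.77, Mtx2 -0.20, Pmpca -0.51, Pmpcb -0.20, Timm10b -0.79, Timm13 -0.48, Timm17b -1.09, Timm29 -0.44, Tomm22 -0.40, Tomm5 -0.0640, Tomm6 -0.21, Tomm7 -0.51 and Tomm70a -0.98. With TPM plus 0.1 they were Chchd4 -0.80, Mtx1 -0.78, Mtx2 -0.20, Pmpca -0.51, Pmpcb -0.21, Timm10b -0.82, Timm13 -0.49, Timm17b -1.17, Timm29 -0.46, Tomm22 -0.40, Tomm5 -0.0642, Tomm6 -0.21, Tomm7 -0.52 and Tomm70a -0.99. Tomm40, Timm50, Pam16 and Timm8b stayed positive with TPM plus 1 but no longer passed an adjusted p of 0.05, at 0.12, 0.0129, 0.11 and 0.0109. Genes near no change moved to a fall of over 2-fold with library totals, at -1.12 for Samm50, -1.10 for Timm21, -1.16 for Timm22 and -1.07 for Tomm40l. In Cadict against Cu-Cys, where library totals lowered the number of positive import genes from 24 to 14, the values that turned negative among the 13 called genes were found on TPM alone. TPM plus 1 gave Mtx2 -0.14, Timm10 -0.0237, Timm50 -0.0644 and Timm9 -0.0114, and TPM plus 0.1 gave Mtx2 -0.15, Timm10 -0.0241, Timm50 -0.0649 and Timm9 -0.0116.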
